A study of Mus musculus with 8 samples.

Results

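The enzymes of oxidative phosphorylation are large assemblies of the inner mitochondrial membrane, and the genes of their subunits were followed here in mouse liver during metabolic dysfunction-associated steatohepatitis (MASH). Members were taken by symbol: protein-coding genes of the GRCm38 annotation named Nduf followed by a, b, c, s or v and a digit, Sdha to Sdhd, Uqcr, Cox4 to Cox8, Atp5, or mt- followed by Nd, Co, Cytb or Atp. Of 52636 genes in the count tables, 97 qualified, 84 of them encoded in the nucleus and 13 in the mitochondrial genome. By complex there were 42 members in complex I, 4 in complex II, 9 in complex III, 23 in complex IV and 19 in complex V. Ndufa4 and Ndufa4l2 were placed with complex IV, where the Ndufa4 protein is now known to reside. The symbols do not take in Cyc1, Ndufab1 or the assembly factors, and Atp5s and Cox7a2l were taken although neither is a structural subunit.

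Livers came from 8 male wild-type C57BL/6J mice, 4 per group, each sequenced as 1 bulk library. At 7 weeks of age the mice received an intraperitoneal injection of AAV8-TBG-GFP (AAV8-GFP, mice 303, 311, 314 and 315) or AAV8-TBG-AGXT (AAV8-AGXT, mice 308, 309, 316 and 319). AAV8 is an adeno-associated virus that reaches the liver, TBG is a hepatocyte-specific promoter, and AGXT is the human alanine-glyoxylate aminotransferase, so the transgene was driven in hepatocytes while the RNA came from the whole tissue. From 8 weeks of age all mice, controls included, were given a MASH diet rich in fat, cholesterol and fructose, which lasted 24 weeks, and no group on normal chow is part of this comparison. The tables hold no row for the human transgene, which was not analysed here.

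Complexes I and II pass electrons from NADH and succinate to ubiquinone, complex III passes them to cytochrome c, and complex IV passes them to oxygen. Complexes I, III and IV pump protons, and complex V, the ATP synthase, lets them flow back to make ATP. Complex II is encoded wholly in the nucleus, whereas the others join nuclear subunits to a few made inside the mitochondrion from its own circular genome. Hepatocytes are rich in mitochondria and use this chain to burn fatty acids, the fuel that piles up in steatohepatitis.

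Gene counts per library came to 19747909 to 28780140 in AAV8-GFP mice and 17095433 to 23940200 in AAV8-AGXT mice. Levels are given as CPM, counts divided by library size and scaled by the TMM factors of edgeR, which assume that most genes do not change, and means are given ± SD over the 4 mice of a group. Differences are log2 fold changes of AAV8-AGXT over AAV8-GFP (log2FC) from edgeR, each with its standard error (SE) and a p adjusted over all genes tested. The TMM factors were between 1.021 and 1.14 in AAV8-GFP mice and between 0.830 in mouse 308 and 1.00 in AAV8-AGXT mice, so the scaling differs between the groups. Without them, on total counts, the median log2 fold change of all 15248 tested genes was -0.22, against 0.02 with them. As the label of liver requires, hepatocyte markers were abundant, 7 of them summing to 44899 to 54401 CPM in the controls and 54938 to 75403 CPM in AAV8-AGXT mice. A bulk library cannot tell fewer cells of a type from less RNA per cell. Along with the treatment, summed CPM of the 7 pericentral hepatocyte markers went from between 7444 and 9379 in AAV8-GFP mice to between 15363 and 20279 in AAV8-AGXT mice, and 3 of the 7 were called higher (edgeR, adjusted p under 0.05). Most of that sum was Cyp2e1, with means of 5450 CPM in the controls and 12060 CPM in AAV8-AGXT mice. All 7 log2 fold changes were above 0, from 0.14 for Rhbg to 1.485 for Oat. Those of 7 periportal hepatocyte markers were also all above 0, with a median of 0.55 and none called. Their sums were 4016.5 to 6855.5 CPM in the controls and 6283.2 to 7699.5 CPM in AAV8-AGXT mice. Of 8 stellate and myofibroblast markers, summed CPM lay between 528 and 936 and between 214 and 588, and only Acta2 was called lower. Their log2 fold changes were not alike, as Lrat stood at 0.11, the 1 above 0, and Dcn at -0.15. Over 8 macrophage markers the sums were 625 to 1084 and 268 to 918 CPM, and over 5 cholangiocyte markers 225 to 673 and 74.1 to 272 CPM. No marker of these types was called. Of the macrophage markers, 2 had log2 fold changes above 0, Clec4f at 0.45 and Adgre1 at 0.13. The part of these shifts in the results below was not tested.

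Levels differed widely between members. Per kilobase of exon, averaged over the 8 mice, the most abundant nuclear members were Cox6a1 at 498 CPM per kb, Cox8a at 417, Uqcr11 at 341, Cox6b1 at 328 and Cox4i1 at 292. These are small or regulatory subunits of complexes III and IV. Within complex I the highest was Ndufa1 at 224 CPM per kb, within complex II Sdhd at 132, and within complex V Atp5a1 at 251. Exon length here is the union over all annotated transcripts, so a gene with long minor transcripts, such as Ndufb2 at 2.31 CPM per kb, is understated. The mitochondrial members stood above all nuclear ones where they could be counted, with mt-Co1 at 8761, mt-Cytb at 8317, mt-Nd1 at 6214, mt-Nd2 at 4800 and mt-Nd4 at 3438 CPM per kb. Part of mt-Co1 and of mt-Nd4 also occurs on chromosome 1, as described below, which makes their levels less certain. The libraries were made from purified mRNA, and whether mitochondrial and nuclear transcripts were captured alike was not tested. As shares of all counts on genes, the 84 nuclear members took between 1.21% and 1.502% per mouse and the 13 mitochondrial members between 3.03% and 4.97%.

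**Figure D1:**
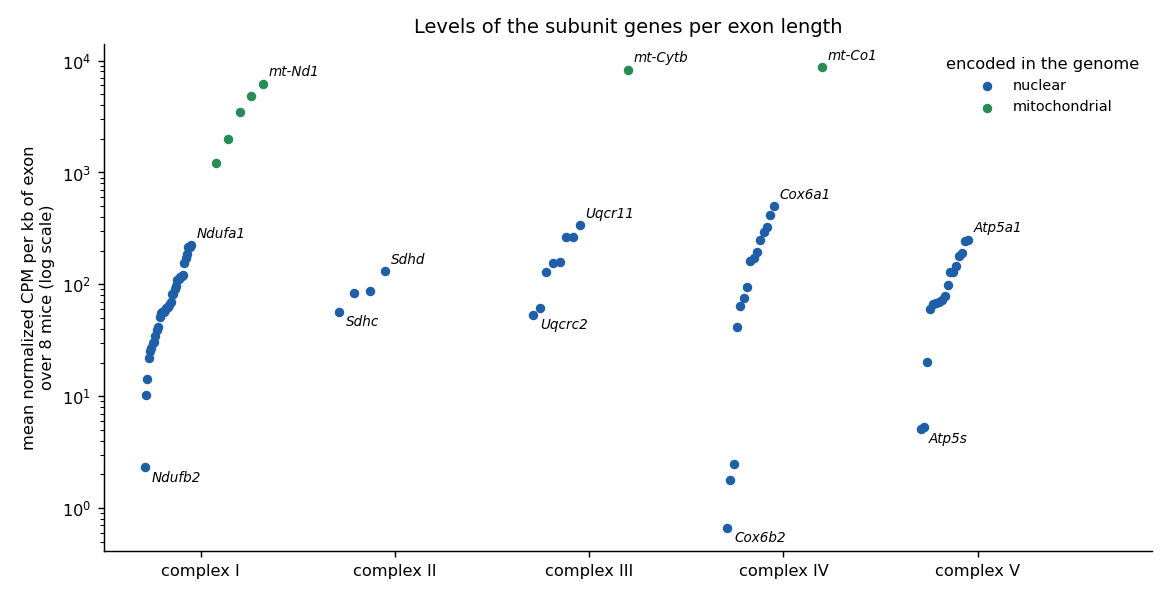
Mean normalized CPM per kilobase of exon over the 8 mice, on a log scale, for each tested nuclear member (blue) and the 7 mitochondrial members not inside the copied stretch (green), by complex, with the highest and lowest named. mt-Co1, mt-Cytb and mt-Nd1 at 6214 to 8761 CPM per kb lie above the highest nuclear member, Cox6a1 at 498.

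Where a subunit has alternative forms, the ubiquitous or liver form was the abundant one. Cox6a1, the liver form, was at 349.9 ± 32.9 CPM in the controls and 349.6 ± 62.8 CPM in AAV8-AGXT mice, while its heart and muscle counterpart Cox6a2 had 31 counts in the 4 AAV8-GFP libraries together and 9 in the 4 AAV8-AGXT libraries. Cox4i2, a form of subunit 4 best known from lung, had 33 and 7 counts, and Cox8b, a muscle form of subunit 8, had 26 and 12. The testis forms Cox7b2 and Cox8c had none in any library, where 3 counts in a library would be the limit that a count of 0 allows. These 5 genes did not pass the low-count filter and were not fitted by edgeR. An exact two-sided permutation test over the 70 arrangements of the mice gave p = 0.0857 for Cox4i2, p = 0.0857 for Cox6a2 and p = 0.486 for Cox8b. Other alternative forms were scarce but tested: Cox7a1, the heart and muscle form of subunit 7a, at 1.68 ± 0.201 and 0.992 ± 0.387 CPM, Cox6b2, a testis form, at 0.838 ± 0.314 and 0.637 ± 0.290 CPM, and Ndufa4l2, known as induced by hypoxia, at 2.21 ± 0.601 and 1.70 ± 0.491 CPM. The summed CPM of 7 skeletal and heart muscle markers did not exceed 0.551 in any mouse, with Myh4, Myh6 and Mb at 0 throughout. The ring-forming c subunit of complex V is encoded by 3 genes as the same mature protein. Their RNA was highest per exon length for Atp5g3 at 189.98 CPM per kb, then Atp5g2 at 69.4 and Atp5g1 at 20.2. Before division by length, Atp5g1 was at 94.3 CPM in the controls and 103.7 CPM in AAV8-AGXT mice. Atp5g2 was at 106.8 and 125.8 CPM. The exon union is 4912 bases for Atp5g1 and 1675 for Atp5g2, so the gap per kb between these genes comes largely from length.

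Among the 79 nuclear members tested, 1 gene was called in AAV8-AGXT against AAV8-GFP mice, Sdhd, which was higher, and none was called lower (edgeR, adjusted p under 0.05). That is 1.27% of the members, where 2.45% of all tested genes were called higher and 1.9% lower. At an unadjusted p under 0.05 there were 14 of the 79 members and 3988 of all 15248 tested genes, a larger share of all genes. The DESeq2 Wald test called 6 of 82 higher (among them Ndufv1, Sdhd, Uqcrfs1, Atp5a1 and Atp5b). Of all genes it called 1068 higher, or 3.78% of 28289. Those 28289 include scarce genes that the edgeR filter left out, so the shares do not compare like with like. With limma-voom, 3 of 79 were called (Sdhd, Atp5a1 and Atp5b), where it called 2.65% of all genes higher. Small shifts to one side were more common than calls: 69 of 79 log2 fold changes, or 87.3%, were above 0, against 52.3% of all tested genes, whereas on total counts 18 of 79, or 22.8%, were, against 24.1%. With TMM factors the median of the members was 0.14, with a range from -0.77 for Cox7a1 to 0.51 for Cox7a2l, and the median standard error of a member was 0.15. For 12 members, or 15.2%, every AAV8-AGXT mouse lay above every AAV8-GFP mouse, where 8.93% of all tested genes did so, and for 1 member, Cox7a1, every one lay below, where 7.63% did. Among the 12 were Ndufa9, Ndufs1, Ndufv1, Sdha, Sdhd, Uqcrfs1, Atp5a1, Atp5b, Atp5c1, Atp5f1 and Atp5g3. Ndufa9 is the one accessory subunit of complex I among them.

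**Figure D2:**
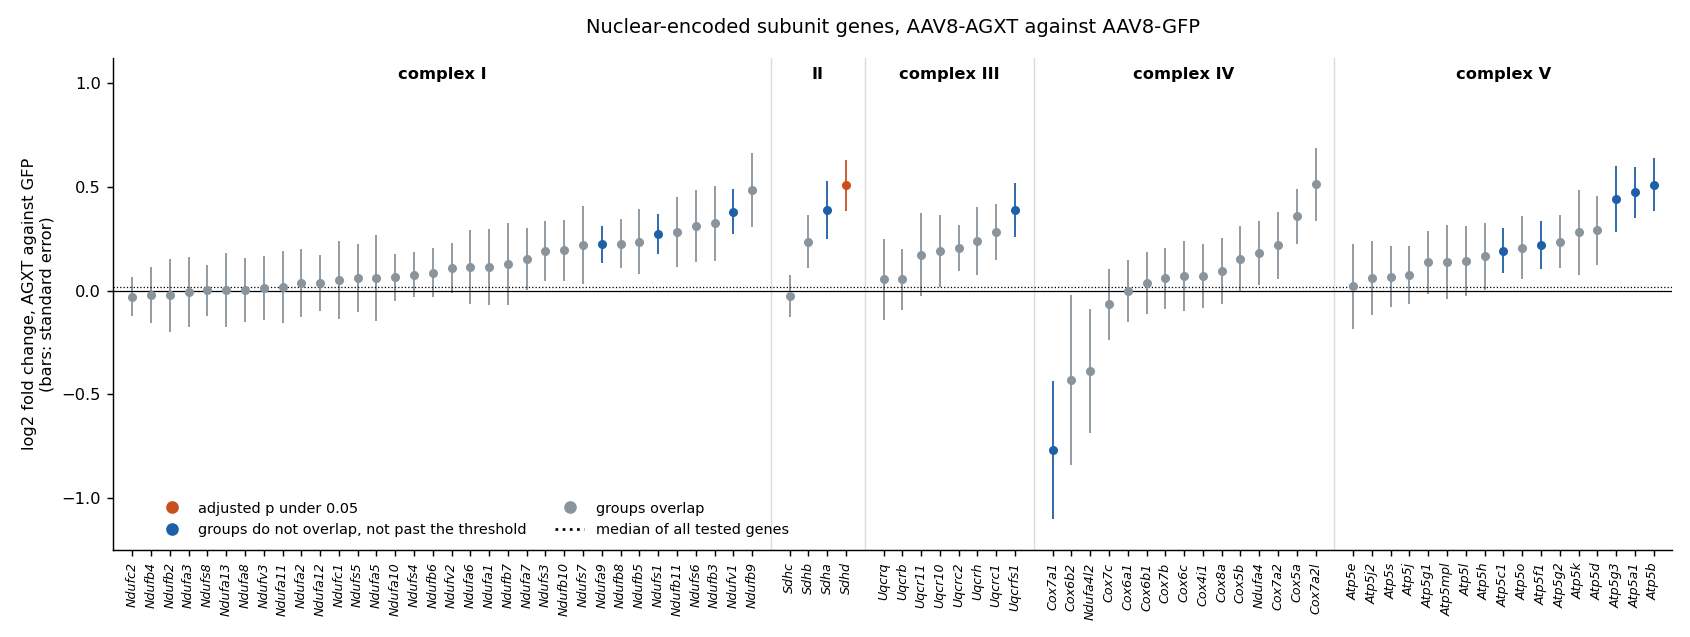
Log2 fold change of 78 of the 79 tested nuclear members, AAV8-AGXT against AAV8-GFP, with its standard error, ordered within each complex. Sdhd alone passed an adjusted p of 0.05 (orange), the other members whose groups do not overlap are in blue, and the dotted line at 0.02 is the median of all tested genes.

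The shift was not shared evenly by the mice. Mouse 308 of the AAV8-AGXT group held the highest value for 70 of the 79 nuclear members, or 88.6%, whereas it was highest for 23.8% of all tested genes. Mouse 309 of the same group held the lowest value for 39 members, or 49.4%, against 14.6% of all genes. Over the 79 members, the median log2 distance from the AAV8-GFP mean was 0.49 in mouse 308, 0.17 in mouse 319, 0.05 in mouse 316 and -0.20 in mouse 309. In AAV8-GFP mice it was 0.10 in mouse 303, 0.05 in mouse 315, 0.02 in mouse 311 and -0.17 in mouse 314. The groups therefore overlapped in this measure, and without mouse 308 the median log2 fold change was 0.00 with 40 of 79 members above 0. Without mouse 314 it was 0.06 with 47 above 0, and without mouse 309 it was 0.21 with 74 above 0. Mouse 308 had the lowest TMM factor and also the most unaligned pairs, 6.05% of the tally, against 1.32% to 4.55% in the other mice, and the part of this in its values was not tested. On total counts the median over the 79 members was -0.12, which is 0.10 above that of all genes on the same scale, compared with 0.12 above it with TMM factors.

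**Figure D3:**
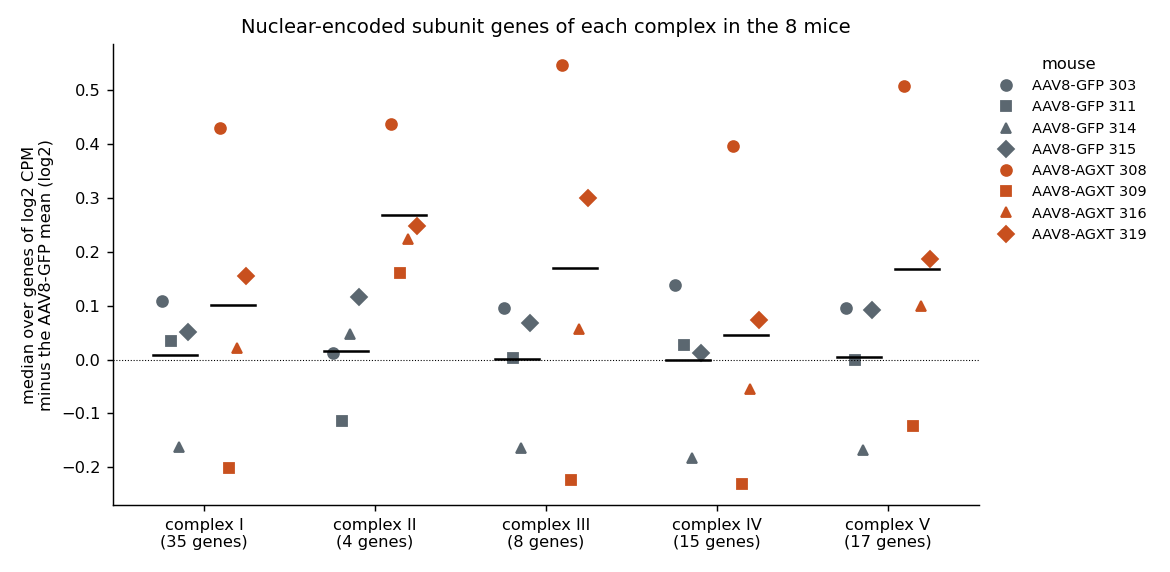
For each complex, the median over its tested nuclear members of log2 CPM minus the AAV8-GFP mean, 1 point per mouse, with a line at the group mean. Mouse 308 is highest in each complex and mouse 309 is lowest in complexes I, III and IV, while in complex II the 4 AAV8-AGXT mice, at 0.16 to 0.44, lie above the 4 AAV8-GFP mice, at -0.11 to 0.12.

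In complexes II and V, and in no other complex, the summed expression of every AAV8-AGXT mouse was above that of every control. Summed over its 4 genes, expression was 775, 731, 829 and 866 CPM in mice 303, 311, 314 and 315, and 1054, 989, 923 and 953 CPM in mice 308, 309, 316 and 319. The lowest treated mouse was thus above the highest control. The means were 800.4 ± 59.3 and 979.6 ± 56.4 CPM, a ratio of 1.22, which lay between 1.19 and 1.26 with each mouse left out. On total counts the ratio was 1.04 and the groups overlapped.

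Sdhd (ENSMUSG00000000171, GRCm38 chromosome 9, 50596357 to 50603812, minus strand) encodes a small anchor that holds complex II in the membrane and helps to form its ubiquinone site. It was at 133, 119.8, 148 and 135 CPM in mice 303, 311, 314 and 315, and at 213, 159.7, 189 and 201 CPM in mice 308, 309, 316 and 319. The AAV8-GFP mice did not reach the lowest AAV8-AGXT mouse, 309. Sdhd rose from 134.1 ± 11.7 to 190.6 ± 22.8 CPM, a log2FC of 0.51 (SE 0.12, edgeR adjusted p = 0.0489). This p lies just inside the threshold, and it was between 0.00206 with the DESeq2 Wald test and 0.166 without mouse 311 over 17 alternatives, of which 6 called the gene. On total counts the log2FC was 0.26 (edgeR adjusted p = 0.121). The other anchor, Sdhc, went from 185.7 ± 9.70 to 182.5 ± 12.95 CPM, a log2FC of -0.03 (SE 0.10, edgeR adjusted p = 0.899). The difference between these anchors was itself not tested. Sdha, the flavoprotein that oxidizes succinate, was at 274, 266, 351 and 345 CPM in AAV8-GFP mice and at 398, 469, 366 and 385 CPM in AAV8-AGXT mice. The groups did not overlap, and the log2FC of 0.39 (SE 0.14, edgeR adjusted p = 0.123) did not pass. Mouse 309, the lowest for many other members, was the highest here. Sdhb, the iron-sulfur subunit, had a log2FC of 0.24 (SE 0.13, edgeR adjusted p = 0.273).

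The promoters of Sdhd and Sdha are shown because these are the complex II genes with the lowest p-values, and both hold words bound by factors known for respiratory genes. Each runs from 250 bases before to 50 bases after the start that RefSeq gives on GRCm38.p6, in the direction of transcription, at chr9:50603800-50604099 and chr13:74350191-74350490. Capitals mark GCGCANGCG or its reverse complement, the core word of nuclear respiratory factor 1 (NRF1), and TCAAGGTCA or its reverse complement, the word of the estrogen-related receptors. In Sdhd the first run of capitals is NRF1 and the second the receptor word, and in Sdha all 3 runs are NRF1.
Sdhd: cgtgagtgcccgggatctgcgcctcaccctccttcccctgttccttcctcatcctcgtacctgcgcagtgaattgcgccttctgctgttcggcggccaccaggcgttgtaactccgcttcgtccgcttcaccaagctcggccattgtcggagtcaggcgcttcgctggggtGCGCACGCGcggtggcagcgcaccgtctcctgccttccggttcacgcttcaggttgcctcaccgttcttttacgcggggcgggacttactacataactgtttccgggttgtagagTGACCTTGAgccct
Sdha: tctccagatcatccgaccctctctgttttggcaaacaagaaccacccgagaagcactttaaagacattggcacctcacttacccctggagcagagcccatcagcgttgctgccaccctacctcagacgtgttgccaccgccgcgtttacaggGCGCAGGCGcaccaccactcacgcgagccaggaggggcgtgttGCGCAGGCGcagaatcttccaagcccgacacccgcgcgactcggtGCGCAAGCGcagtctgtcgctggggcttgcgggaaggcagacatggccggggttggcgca

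In complex V, expression summed over 17 nuclear genes was 4005, 3791, 3816 and 4203 CPM in mice 303, 311, 314 and 315, and 5864, 4319, 4607 and 5074 CPM in mice 308, 309, 316 and 319. The groups did not overlap, and mouse 309 was the treated mouse nearest to the controls. The ratio of the means was 1.26, and with each mouse left out it lay between 1.18 and 1.31. On total counts it was 1.06 and the groups overlapped. All 17 log2 fold changes were above 0, none was called, and their median was 0.19. Without mouse 308, 11 of 17 were above 0 with a median of 0.04, and on total counts 5 of 17 with a median of -0.05.

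Of its subdivisions, the catalytic head and central stalk, where ATP is made as the stalk turns, had the largest ratio of summed expression. Its 5 genes summed to 2223 ± 125 CPM in the controls and 2946 ± 295 CPM in AAV8-AGXT mice, a ratio of 1.33. Most of this sum was Atp5b and Atp5a1, with means of 853 and 659 CPM in the controls and 1216 and 915 CPM in AAV8-AGXT mice. The sum of the head therefore mainly follows these genes. As a share of all counts on genes, which uses no TMM factor, the head took 0.239%, 0.237%, 0.244% and 0.244% in mice 303, 311, 314 and 315. It took 0.275%, 0.264%, 0.27028% and 0.27052% in mice 308, 309, 316 and 319, so the groups of the head were apart on this scale, unlike those of complex V as a whole. Over the c ring genes the median log2 fold change was 0.24, over the 4 peripheral stalk genes 0.19, and over the 4 small membrane subunits 0.14. Without mouse 308 these medians were 0.13, 0.02 and -0.04, and that of the head was 0.15 in place of 0.29. On total counts they were -0.01, -0.07 and -0.12 (0 of 4 peripheral stalk genes above 0), and that of the head was 0.04. The small membrane subunits overlapped between groups, with 340.2 to 427 CPM in the controls and 305 to 579 CPM in AAV8-AGXT mice.

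Atp5b, the β subunit that carries the catalytic sites, was at 805, 788, 892 and 928 CPM in mice 303, 311, 314 and 315, and at 1353, 1121, 1133 and 1256 CPM in mice 308, 309, 316 and 319. Every treated mouse exceeded every control, mouse 308 by the most. The log2FC of 0.51 (SE 0.13, edgeR adjusted p = 0.0531) was just outside the threshold that Sdhd met, and the DESeq2 Wald test, limma-voom and robust estimation placed it inside, at adjusted p = 0.000158, 0.0448 and 0.0475. Atp5a1, the α subunit of the same head, was at 633, 592, 699 and 709.9 CPM in AAV8-GFP mice and at 948, 915, 839 and 956 CPM in AAV8-AGXT mice. Its means of 658.7 ± 55.9 and 914.5 ± 53.6 CPM gave a log2FC of 0.47 (SE 0.12, edgeR adjusted p = 0.0571). DESeq2 and limma-voom gave adjusted p = 0.000228 and 0.0463. On total counts the log2 fold changes of Atp5b and Atp5a1 were 0.27 and 0.24 (edgeR adjusted p = 0.0944 and 0.141). Atp5c1, the rotating γ subunit, did not overlap between groups either, at a log2FC of 0.19 (SE 0.11, edgeR adjusted p = 0.282). The gap of Atp5c1 was narrow, as mouse 316 at 245.8 CPM was just above mouse 315 at 245.4 CPM. Atp5d, the δ subunit, overlapped between groups, with a log2FC of 0.29 (SE 0.16, edgeR adjusted p = 0.292). Atp5e, the small ε subunit, stood at 0.02 (SE 0.21, edgeR adjusted p = 0.963), with mouse 308 highest at 240.4 CPM and mouse 309 lowest at 122 CPM, and its sign turned under 7 of 17 alternatives. The head therefore held members near the threshold beside one whose difference was well within its SE. Of the c ring genes, Atp5g3 was at 372, 326, 339.6 and 367 CPM in AAV8-GFP mice and at 622, 372, 448 and 467 CPM in AAV8-AGXT mice, a log2FC of 0.44 (SE 0.16, edgeR adjusted p = 0.12). The lack of overlap is narrow there, as mouse 309 at 372.3 CPM was just above mouse 303 at 371.6 CPM. Atp5g2 and Atp5g1 had log2 fold changes of 0.24 and 0.14, and Atp5s, a factor coupled to the synthase but no structural subunit of it, had 0.07.

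The promoter of Atp5g3 at chr2:73911277-73911576 (GRCm38.p6, minus strand) is shown as the other member promoter, beside that of Sdhd, with the estrogen-related receptor word. The receptor word comes first and NRF1 second, both read on the reverse strand here.
Atp5g3: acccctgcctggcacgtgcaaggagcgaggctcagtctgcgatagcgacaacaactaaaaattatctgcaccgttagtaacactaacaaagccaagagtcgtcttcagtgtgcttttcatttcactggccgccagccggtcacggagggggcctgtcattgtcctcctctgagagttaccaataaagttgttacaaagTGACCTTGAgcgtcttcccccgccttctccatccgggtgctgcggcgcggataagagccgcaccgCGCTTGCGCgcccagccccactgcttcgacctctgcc

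**Figure D4:**
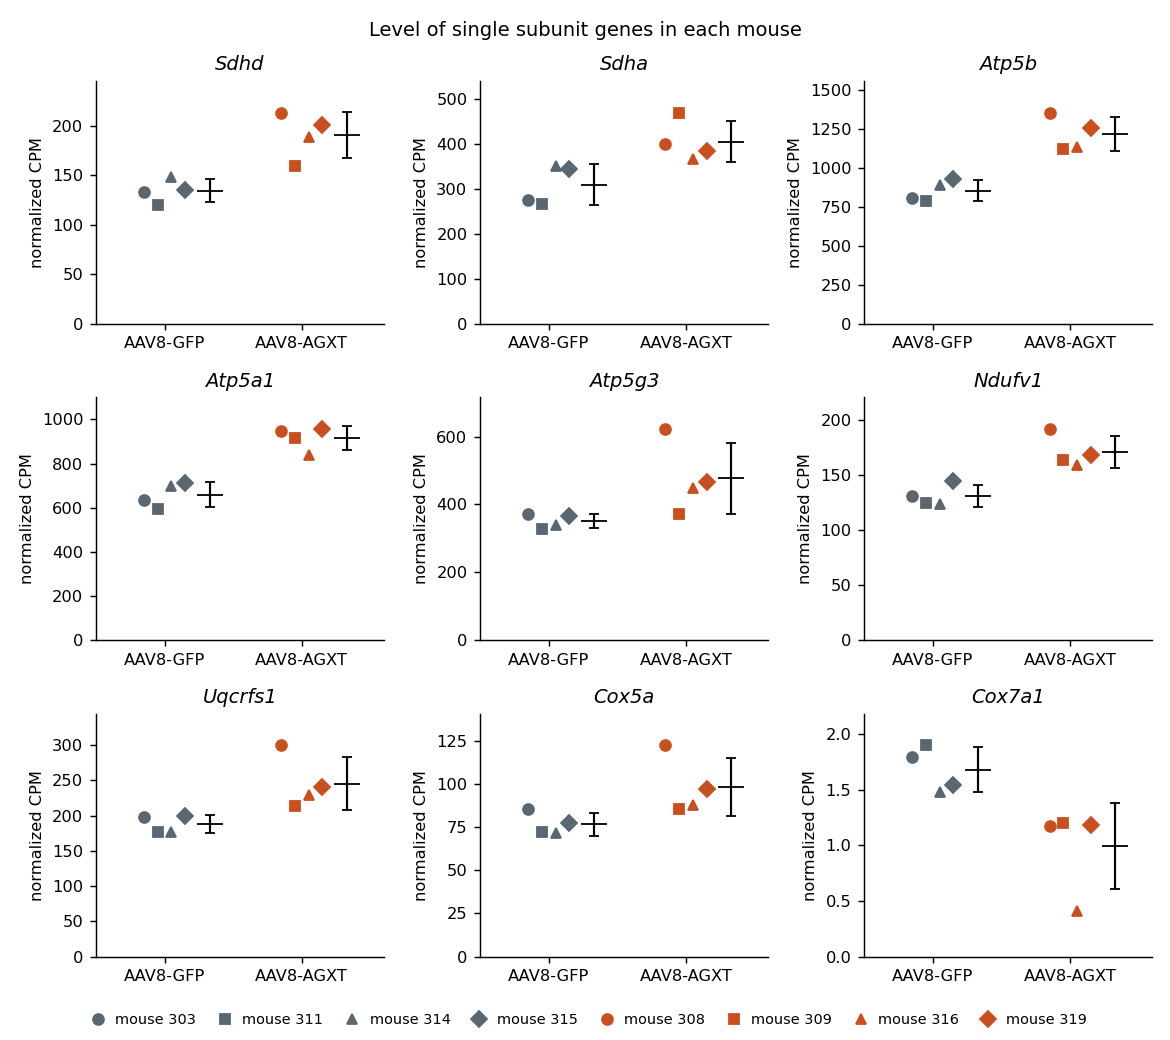
Normalized CPM of 9 nuclear members in each mouse, with mean and SD of the 4 mice of a group beside the points, every axis starting at 0. The groups are apart for each gene but Cox5a, where mouse 309 at 85.69 CPM lies just under mouse 303 at 85.75, and Cox7a1 is the one with lower values in AAV8-AGXT mice.

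The core subunits of complex I, conserved from bacteria, carry its flavin, its iron-sulfur clusters and the quinone site, and the accessory subunits surround them. The median log2 fold change was 0.22 over 7 nuclear core genes and 0.07 over 28 tested accessory genes, none of either being called, and the difference between these medians was not tested. Without mouse 308 they were 0.06 and -0.07, and on total counts -0.03 and -0.17. Ndufv1, which binds NADH and flavin, was at 131, 124, 124 and 145 CPM in mice 303, 311, 314 and 315, and at 191, 164, 159 and 168 CPM in mice 308, 309, 316 and 319. No control reached the lowest treated mouse, 316, and the log2 fold change was 0.38 (SE 0.11, edgeR adjusted p = 0.0703). The DESeq2 Wald test called it, at adjusted p = 0.0062. Ndufs1, the large iron-sulfur subunit, had groups apart at a log2FC of 0.27 (SE 0.10, edgeR adjusted p = 0.118). Ndufs8, another core iron-sulfur subunit, had a log2FC of 0.00 (SE 0.12, edgeR adjusted p = 0.998).

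Among accessory genes Ndufb9, of the membrane arm, had the largest value, a log2FC of 0.49 (SE 0.18, edgeR adjusted p = 0.124). Mice 308, 319 and 316, at 350.7, 267 and 238 CPM, lay above the AAV8-GFP range of 165 to 206 CPM and mouse 309, at 192 CPM, within it, and without mouse 308 the value was 0.30. Ndufc2 had the smallest, -0.03 (SE 0.09, edgeR adjusted p = 0.871), and Ndufa1 had 0.11 (SE 0.18, edgeR adjusted p = 0.733). Ndufa9, which lies near the quinone site, was the accessory gene whose groups were apart, with means of 75.0 and 87.6 CPM and a log2FC of 0.22 (SE 0.09, edgeR adjusted p = 0.157). In mouse 309 the core genes stood 0.09 above the AAV8-GFP mean by their median and the accessory genes at -0.27. Across the 79 nuclear members of all complexes, log2 exon length and log2 fold change had a Pearson r of 0.264 and a Spearman rho of 0.252, values across genes that share the same 8 libraries.

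In complex III all 8 nuclear genes had log2 fold changes above 0, with a median of 0.20 and none called. Without mouse 308, 6 of 8 were above 0 with a median of 0.05, and on total counts 2 of 8 with a median of -0.05. Uqcrfs1, the Rieske iron-sulfur protein that takes electrons from ubiquinol, was at 198, 176, 177 and 199 CPM in mice 303, 311, 314 and 315, and at 299.6, 213, 229 and 240.0 CPM in mice 308, 309, 316 and 319. The groups were apart, at a log2FC of 0.39 (SE 0.13, edgeR adjusted p = 0.102), which the DESeq2 Wald test called at adjusted p = 0.0332. Uqcrc1, a core protein that does not carry electrons, had 0.28 (SE 0.13, edgeR adjusted p = 0.213). Uqcr11 and Uqcrq, small subunits at the edge of the complex, had 0.17 and 0.05, with standard errors of 0.20 each and mouse 309 the lowest of all 8 mice for both. Cyc1, the cytochrome c1 of this complex that the symbols do not take in, went from 181.2 ± 13.8 to 237.4 ± 43.8 CPM, a log2FC of 0.39 (SE 0.14, edgeR adjusted p = 0.123).

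Complex IV had the smallest median, 0.07 over 15 tested nuclear genes, and no called member. Without mouse 308 its median was -0.08, and on total counts -0.19. Its summed expression was 2739 ± 222 CPM in the controls and 2951 ± 572 CPM in AAV8-AGXT mice, which overlapped, and without mouse 308 the ratio of 1.08 became 0.985. Cox5a, a small subunit on the matrix side, had a log2FC of 0.36 (SE 0.13, edgeR adjusted p = 0.1251). Cox7a2l, a factor that ties complexes III and IV together and is shortened in C57BL/6 mice, was at 73.5, 83.8, 92.5 and 61.9 CPM in AAV8-GFP mice and at 111, 96.7, 90.8 and 146 CPM in AAV8-AGXT mice. Mouse 316 lay below mouse 314 there, and the log2 fold change was 0.51 (SE 0.17, edgeR adjusted p = 0.105). Its ubiquitous relative Cox7a2 had 0.22 (SE 0.16, edgeR adjusted p = 0.416). Cox7a1, the muscle form, was the one member below every control, at 1.80, 1.90, 1.48 and 1.54 CPM in AAV8-GFP mice and 1.17, 1.202, 0.411 and 1.18 CPM in AAV8-AGXT mice. Its log2FC of -0.77 (SE 0.33, edgeR adjusted p = 0.174) did not pass. Cox6a1 stood at -0.00 (SE 0.15, edgeR adjusted p = 0.998), and the abundant Cox4i1 at 0.07 (SE 0.15, edgeR adjusted p = 0.808). Of the other ubiquitous forms, Cox6b1 had a log2FC of 0.04, Cox7b 0.06, Cox8a 0.09 and Ndufa4 0.18, none called.

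The 13 mitochondrial members split into those that these counts can measure in whole or in part and those that they cannot. On GRCm38 a stretch of the mitochondrial genome from 6394 to 11042, 4649 bases long, recurs on chromosome 1 between 24611535 and 24616197, where 7 unprocessed pseudogenes are annotated (Gm28439, Gm10222, Gm28438, Gm28437, Gm10925, Gm28661 and Gm29216). The genes mt-Co2, mt-Atp8, mt-Atp6, mt-Co3, mt-Nd3 and mt-Nd4l lie inside it. Of windows of 67 bases, the length taken for 1 read, between 97.9% and 99.9% of 5 of these genes occurred also in an annotated copy, and mt-Atp8 falls between the annotated copies. By default HTSeq leaves uncounted a pair aligned at several places. The last 479 of 1545 bases of mt-Co1 and the first 876 of 1378 bases of mt-Nd4 also lie in the stretch. The edges of it are shown where the shared windows of annotated transcripts placed them, and copies beyond annotated transcripts were not searched for. Capitals mark bases within windows shared with the chromosome 1 copies, in mt-Co1 at chrM:6364-6423 and in mt-Nd4 at chrM:11013-11072, plus strand, from GRCm38 transcripts. Bases in small letters lie outside such windows, which does not show that each differs from chromosome 1.
mt-Co1: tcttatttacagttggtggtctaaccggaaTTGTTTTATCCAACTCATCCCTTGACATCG
mt-Nd4: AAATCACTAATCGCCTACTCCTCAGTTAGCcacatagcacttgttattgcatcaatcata

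The counts inside the stretch varied widely between libraries of the same group. On the 6 inside genes together there were 27429, 32544, 25727 and 1190 counts in mice 303, 311, 314 and 315, and 751, 2918, 127412 and 570 counts in mice 308, 309, 316 and 319. On the 7 copies there were 1095, 1264, 1186 and 79851 counts in mice 303, 311, 314 and 315, and 962, 802, 920 and 19767 counts in mice 308, 309, 316 and 319. Mouse 316 was thus high on the mitochondrial side alone, mice 315 and 319 were high on the chromosome 1 side, and mice 308 and 309 were low on both. The same gene could move apart from its neighbours, as mt-Atp6 was at 1158 CPM in mouse 314, where mt-Co3 was at 10.5. Log2 fold changes of the 6 genes were 0.21 to 1.81 with standard errors of 1.47 to 1.79, and they are not read here as expression.

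**Figure D5:**
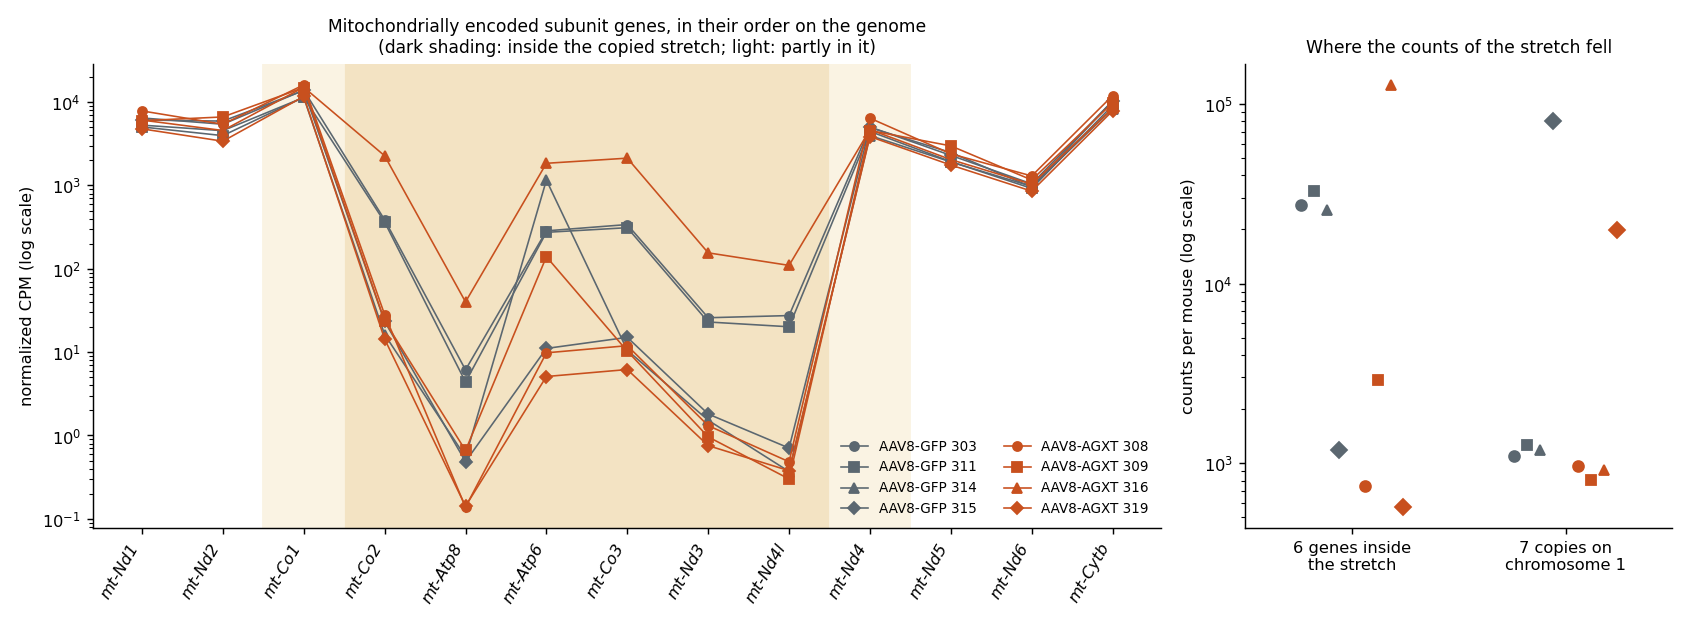
Left, normalized CPM on a log scale of the 13 mitochondrial members in their order along the genome, 1 line per mouse, with the copied stretch shaded, and right, counts on a log scale on the 6 genes inside the stretch and on the 7 chromosome 1 copies. Lines lie together outside the stretch and spread widely inside it, with mouse 316 on top.

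The 7 other mitochondrial members gave no call and overlapped between groups. Among them, mt-Co1 had 43.4% and mt-Nd4 61.7% of windows in annotated copies, so their values carry part of the limit above. mt-Nd1, a membrane core subunit of complex I, was at 6454, 5034, 5294 and 6096 CPM in mice 303, 311, 314 and 315, and at 7841, 5991, 6087 and 4775 CPM in mice 308, 309, 316 and 319. mt-Cytb, the cytochrome b of complex III, was at 10314, 9139, 8306 and 10327 CPM in AAV8-GFP mice and at 11976, 9772, 8430 and 7852 CPM in AAV8-AGXT mice. mt-Co1, the catalytic subunit of complex IV, was at 13894, 11436, 11358 and 13785 CPM in AAV8-GFP mice and at 16103, 14964, 15061 and 11689 CPM in AAV8-AGXT mice. In these 3 genes mouse 308 was the highest, and mouse 319 was the lowest of the treated mice. The log2 fold changes were 0.11 for mt-Nd1 (SE 0.18, edgeR adjusted p = 0.742), -0.00 for mt-Cytb (SE 0.18, edgeR adjusted p = 0.996) and 0.20 for mt-Co1 (SE 0.17, edgeR adjusted p = 0.499). mt-Nd2, mt-Nd4 and mt-Nd5, also membrane core subunits of complex I, had 0.01, 0.08 and 0.09. mt-Nd6, the one subunit on the other strand, had 0.16 (SE 0.15, edgeR adjusted p = 0.534). The median of the 7 was 0.09, and the standard errors of 0.15 to 0.22 mean that a difference of that size was not detectable here. The ribosomal RNAs of the same genome, mt-Rnr1 and mt-Rnr2, had log2 fold changes of 0.69 and 0.42 (edgeR adjusted p = 0.233 and 0.407), with mouse 308 highest for both. Since mRNA was purified for the libraries, these values hold only what remained of the ribosomal RNAs.

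Copies and neighbours limit some nuclear members too. Of 84, 26 had at least 1 window of 67 bases in the annotated transcripts of another gene and 13 had more than 10% of theirs, with Atp5l at 65.7% and 9 such genes, Atp5h at 39.0%, Ndufb4 at 35.8% and Uqcrb at 33.7%. Sdhd, Sdha, Atp5a1, Atp5b, Atp5g3, Ndufv1, Ndufs1 and Uqcrfs1 had none, while 17.9% of Atp5f1 and 14.8% of Cox7a2l windows were copied. Since the strand option of the counting is not stated, exon bases shared with neighbouring genes add doubt to Ndufs1 with 498 bases, Atp5f1 with 337, Cox5a with 269, Atp5a1 with 129 and Ndufa9 with 67. Ndufb9 shares 201 exon bases with a gene on its own strand.

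Promoters were searched for the words of 4 known regulators. RefSeq promoters on GRCm38.p6 were matched for 66 of the 84 nuclear members, 71 promoters of 300 bases. On either strand, GCGCANGCG (NRF1) was in 21 of 71, or 29.6%, against 6.25% of all 32851 promoters and 12% of promoters of tested genes. AAGATGGCG (YY1) was in 9.86%, against 1.4% and 2.68%, and CCGGAAGT (the ETS word of GABP) in 7.04%, against 3.89% and 7.32%. TCAAGGTCA (estrogen-related receptors) was in 2 promoters, Sdhd and Atp5g3, or 2.82%, against 0.423% and 0.292%. None of the 4 words contains another. The median log2 fold change was 0.18 over 20 tested members with the NRF1 word and 0.12 over 44 without it. With the YY1 word it was 0.08 over 7 members and without it 0.15 over 57. A match is a description of letters and not a measured site.

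The regulators' own genes come next. Of 15 nuclear regulators of respiratory genes, 1 was called higher and 0 lower, where 2.45% and 1.9% of all tested genes were, with a median log2FC of 0.14. It was Ppara, the fatty acid receptor that drives hepatic fatty acid oxidation, at 44.7, 37.6, 49.5 and 41.3 CPM in AAV8-GFP mice and 95.9, 62.8, 59.4 and 102.3 CPM in AAV8-AGXT mice. It rose by 0.89 on the log2 scale (SE 0.19, edgeR adjusted p = 0.0376). Ppargc1a, a coactivator of mitochondrial biogenesis, had 0.52 (SE 0.18, edgeR adjusted p = 0.107). Nrf1 had 0.04, Esrra, an estrogen-related receptor, 0.09 and Gabpa 0.25, none called.

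Other mitochondrial genes around the complexes included called ones. Of 27 tested genes for replication, transcription and RNA stability of the mitochondrial genome, 3 were called higher and 0 lower, against the same 2.45% and 1.9% of all tested genes that apply to each list here, with a median of 0.15. They were Polg, the DNA polymerase of mitochondria, at 0.52 (SE 0.08, edgeR adjusted p = 0.0276), Fastkd1, of an RNA-binding family, at 0.52 (edgeR adjusted p = 0.0385), and Hsd17b10, which also serves in isoleucine breakdown and tRNA processing, at 1.08 (edgeR adjusted p = 0.0363). Tfam, which packs and transcribes the mitochondrial genome, had 0.36 (SE 0.09, edgeR adjusted p = 0.0597). Citrate cycle enzymes gave 3 higher and 0 lower of 18, with a median of 0.22: Dlst, of the 2-oxoglutarate dehydrogenase complex, and the succinyl-CoA ligase subunits Sucla2 and Suclg1, at 0.52, 0.60 and 0.64 (edgeR adjusted p = 0.0444, 0.0341 and 0.0448). Cs, citrate synthase, was at 196.6 ± 19.1 and 182.1 ± 21.4 CPM, a log2FC of -0.11 (SE 0.12, edgeR adjusted p = 0.606).

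Of 23 genes for mobile carriers, coenzyme Q synthesis and the other electron donors, 2 were higher and 0 lower, with a median of 0.19. This list also held Cyc1 and Ndufab1, which belong to none of these kinds, and neither was called. Etfdh, which brings electrons of fatty acid oxidation straight to ubiquinone, was at 271, 231, 273 and 246 CPM in AAV8-GFP mice and 463, 439, 372 and 408 CPM in AAV8-AGXT mice, a log2FC of 0.72 (SE 0.12, edgeR adjusted p = 0.0278). Prodh, proline dehydrogenase, had 0.83 (SE 0.18, edgeR adjusted p = 0.0413). Cycs, cytochrome c, had 0.28 (SE 0.15, edgeR adjusted p = 0.272). Of 21 genes of mitochondrial mass and membrane, 2 were higher and 0 lower, with a median of 0.22: Timm23, a pore of the import machinery, at 0.52 and Mfn2, which fuses mitochondria, at 0.59 (edgeR adjusted p = 0.0348 and 0.0287). Of 46 assembly and maturation factors of the complexes, none was called by edgeR and the median was 0.11. At an unadjusted p under 0.05 there were 10 of these factors, beside 3988 of all 15248 tested genes. Whether these shares differ from that of the subunits was not tested.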

How the data were processed

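Liver RNA of 8 mice was sequenced by the authors, 1 library per mouse. The methods name a stranded mRNA kit, with mRNA purified and fragmented. According to the submitters' processing notes and the methods, FastQC 0.11.8 served for quality control, Trimmomatic 0.35 for trimming, HISAT2 2.1.0.13 for alignment (GRCm38) and HTSeq for counting. The deposited values are raw counts per Ensembl gene without normalization. The strand option and overlap mode of the counting are not given in the sources used here. Mice were grouped by the labels, which name them by number, and none was left out.

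Gene names and positions were those of GENCODE M21, which matched 52489 of 52636 rows. Differential expression used R 4.3.3 and edgeR 4.0.16 with filterByExpr, TMM factors, the quasi-likelihood fit and test, and Benjamini-Hochberg adjustment over 15248 genes, with calls at an adjusted p under 0.05. Each SE is the size of the coefficient over the square root of its F value. The script was tested on simulated data. At this depth the spread between mice, a common biological coefficient of variation of 23.3%, sets the precision, and counting error is small for all but scarce genes. Copies were sought in windows of 67 bases among annotated transcripts only. Alternatives were robust estimation, limma-voom (limma 3.58.1), DESeq2 1.42.0 with its Wald test, other scalings, other count filters and each mouse left out. Alternatives for summed expression and for members whose groups do not overlap, and the median without copied mitochondrial genes, were chosen after seeing the data.

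Members, lists and subdivisions of complexes were chosen with earlier results of these data known. Genes named are the called members, in each complex the most abundant member per length, those with the largest and smallest log2 fold change and the 2 smallest p-values, all mitochondrial and all untested members, alternative forms, members that are no structural subunit, and of the lists the called genes with Ppargc1a, Tfam, Esrra, Nrf1, Gabpa, Cycs and Cs. Members whose groups do not overlap, Cyc1, the mitochondrial ribosomal RNAs, and members that complete a sub-assembly or a ranking by level were named after their values were seen. One member that this rule takes in is not reported here by name, though it enters the counts, sums and medians. An identity comparison of the alternative protein forms was not made here. A second Atp5o entry of the annotation was not analysed here, and 12 pseudogenes or non-coding genes with such symbols were left out.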

Additional observations from a re-analysis of the deposited data

Results flagged for a closer look

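In 10 of 98 groups of 4 mice checked, 1 mouse stood far from the other 3, where chance flags about 1 in 20 groups. The ratio given is the gap of that mouse to its nearest neighbour over the whole range of the group. Within the copied mitochondrial stretch it was mouse 316, high in the AAV8-AGXT group, with ratios of 0.996 for mt-Nd3, 0.998 for mt-Nd4l, 0.994 for mt-Co2, 0.997 for mt-Co3, 0.927 for mt-Atp6, 0.987 for mt-Atp8 and 0.928 for the summed mitochondrial complex V genes. On the chromosome 1 copies mouse 315 was high in the AAV8-GFP group, at 0.995, and mouse 319 in the AAV8-AGXT group, at 0.978. These are not separate events, since the genes lie side by side and the copies share their sequence. Cox7a1 was low in mouse 316, at 0.964, where it was at 0.411 CPM against 1.17 to 1.202 CPM in the other AAV8-AGXT mice.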

How the results depend on the processing

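No paired analysis was possible because the groups share no replicate numbers. The number of nuclear members called higher was 1 in the main test, 6 with DESeq2, 3 with limma-voom, 2 with robust estimation, 0 with upper-quartile factors, on total counts, without a filter and with at least 10 counts in every mouse, and 0 to 1 with each mouse left out, Sdhd being called without mouse 309. Calls over all genes also fell away when a mouse was left out, to 2 higher without mouse 311, 11 without 314, 12 without 319 and 86 without 308, from 374, so these counts of 0 say little of the members. On total counts the median of all genes moved to -0.22, the nuclear median to -0.12 and that of the mitochondrial genes not inside the copied stretch to -0.14, and the ratios of summed expression were 0.977 for all nuclear members, 0.939 for complex I, 1.04 for II, 0.955 for III, 0.905 for IV and 1.06 for V. On that scale 3 nuclear members lay above every control and 3 below, where 2.66% and 17.6% of all genes did. The nuclear median was 0.000332 without mouse 308 to 0.212 without mouse 309. Of 540 alternative values for 32 named members, 463 kept direction and side of the threshold and 58 turned direction, in 20 members, 7 of them nuclear; the cause was not tested. On total counts Ndufa1 was at -0.14, Uqcr11 at -0.087, Uqcrq at -0.21, Atp5e at -0.24, mt-Nd1 at -0.13, mt-Nd2 at -0.21, mt-Nd4 at -0.16, mt-Nd5 at -0.14, mt-Nd6 at -0.079 and mt-Co1 at -0.036 (log2FC). With upper-quartile factors Uqcrq was at -0.016, Atp5e at -0.051 and mt-Nd2 at -0.052. With limma-voom Atp5e was at -0.0023, mt-Nd2 at -0.0098, mt-Nd3 at -0.95, mt-Nd4l at -1.251, mt-Co2 at -0.28, mt-Co3 at -0.76, mt-Atp6 at -1.55 and mt-Atp8 at -0.88. Atp5e and mt-Nd2 were at -0.011 and -0.012 without a filter and at -0.027 and -0.028 with at least 10 counts. With each mouse left out, log2FC lay from -0.070 to 0.22 for Ndufa1, -0.10 to 0.0096 for Ndufc2, -0.089 to 0.0046 for Sdhc, -0.14 to 0.17 for Uqcrq, -0.14 to 0.061 for Cox6a1, -0.19 to 0.13 for Atp5e, -0.039 to 0.22 for mt-Nd1, -0.17 to 0.16 for mt-Nd2, -3.71 to 2.15 for mt-Nd3, -0.089 to 0.19 for mt-Nd4, -4.97 to 1.94 for mt-Nd4l, -0.084 to 0.20 for mt-Nd5, -0.15 to 0.083 for mt-Cytb, -3.16 to 2.12 for mt-Co2, -4.16 to 2.26 for mt-Co3, -3.06 to 1.38 for mt-Atp6 and -3.21 to 2.45 for mt-Atp8.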
